A study of Mus musculus with 23 samples.

Results

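Bez235 is a small-molecule inhibitor of both PI3K and mTOR, the lipid and protein kinases that carry growth factor signals through AKT to protein synthesis and the cell cycle. The lines described here are the 11 of 23 murine pancreatic ductal adenocarcinoma (PDAC) cell lines whose names do not begin with PPT, and the question was which transcripts differed between those with a Bez235 IC50 above 10 nmol/L and those with an IC50 below it. The IC50, the concentration of half-maximal inhibition in the MTT viability assay, came from the study's supplementary table and placed each line on one side of that cutoff, with its interval and its size used only in alternatives. ASC-5193, ASC-53909, HEP-5123, B-5123, PUL-15272 and B-152727 formed the group of 6 lines above the cutoff (high-IC50 lines), and B-6051, LN1-15272, HEP2-53631, PUL3-53631 and B-53631 formed the group of 5 lines below it (low-IC50 lines). The line labelled B-152727 was taken as the B-15272 of that table. The array was hybridised once per line, and the labels gave no drug treatment of the arrayed cells.

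The lines did not come from separate mice. The 6 high-IC50 lines came from 4 mice (1 each for the ASC lines, 1 for HEP-5123 with B-5123 and mouse 15272 for PUL-15272 with B-152727), the 5 low-IC50 lines came from 3 mice (1 for B-6051, mouse 15272 for LN1-15272 and mouse 53631 for the 3 others), and mouse 15272 was the only one with lines in both groups. The 95% interval of the IC50 lay wholly on one side of the cutoff in 3 high-IC50 and in 2 low-IC50 lines. The study's genotype table listed 3 of the 11 lines, ASC-5193 and ASC-53909 with Ptf1aCre among the high-IC50 lines and B-6051 with Pdx1-Cre among the low-IC50 lines. ASC-5193 and B-6051 also carried an LSL-p53R172H allele and ASC-53909 carried an R26 reporter allele. Both Cre drivers act in pancreatic progenitors, so an LSL allele is switched on early and in most of the organ's epithelium. The genotypes of the other 8 lines were not analysed here. p-values measure the spread between these lines, and lines of 1 mouse share their origin.

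Each array held log2 signals of 45037 probe sets, of which 34945 had 1 gene symbol. Array medians over the 11 lines lay between 3.61 and 3.85, no 2 arrays were identical, and signals near or below these medians are dim. After subtraction of each probe set's mean, pairs of lines from the same mouse correlated across probe sets at r between -0.12 and 0.61 (7 pairs), against -0.49 to 0.35 in pairs from different mice (48 pairs). HEP-5123 and B-5123 were the most alike.

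The label of ductal carcinoma lines was checked against 8 measured ductal markers. The 9 lines other than ASC-5193 and ASC-53909 had all 8 above their array's median, with a mean ductal signal between 10.11 and 11.17. In ASC-5193 the mean was 3.45 and 7 of 8 markers were below the array's median, Sox9 at 7.69 being the exception. In ASC-53909 the mean was 6.41 and 3 of 8 markers were below the median. Krt8 was 12.15 and Krt19 was 9.83 in ASC-53909, so this line kept part of the keratins of simple epithelia, whereas its Krt7 was 2.45. Both ASC lines were high-IC50 lines. Values without them are given below for a part of the genes and lists, and a missing value does not mean that nothing moved.

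No probe set passed the threshold of adjusted p under 0.05 between high- and low-IC50 lines (limma over all probe sets, 0 of 45037, 0%). The lowest adjusted p was 0.852, so every gene named below has an adjusted p of at least that in the 11 lines. At an unadjusted p under 0.05, 1064 probe sets (2.36%) were higher and 1479 (3.28%) were lower in high-IC50 lines. The median difference over all probe sets was -0.0037 on the log2 scale, with 22173 positive and 22864 negative. By the methods' t-test, 2410 had an unadjusted p under 0.05 and again 0 passed after Benjamini-Hochberg adjustment. With the mouse as a random block, which allows lines of 1 mouse to be alike, 1634 probe sets had an unadjusted p under 0.05 and 0 passed adjustment. Without the ASC lines these counts were 1931 and 0. The differences that follow are therefore fitted log2 differences, high- minus low-IC50, with their standard errors (SE), and none of them was significant across all probe sets in the 11 lines.

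Efemp1, which encodes the secreted matrix protein fibulin 3, is the gene the study itself selected for this response, partly on these lines, so its values are a description. Its signals were 2.26 in ASC-5193, 8.44 in ASC-53909, 7.16 in HEP-5123, 3.95 in B-5123, 10.33 in PUL-15272 and 2.56 in B-152727 among high-IC50 lines. In low-IC50 lines the signals were 10.33 in B-6051, 8.79 in LN1-15272, 10.43 in HEP2-53631, 11.03 in PUL3-53631 and 10.73 in B-53631. The low-IC50 lines were all high, and the high-IC50 lines ran from background to the level of the low group, with PUL-15272 inside it. The fitted difference was -4.48 (SE 1.39, unadjusted p = 0.00779, adjusted p = 0.852, limma), the 6th largest of 45037 in size and the 295th by p. It was -4.26 (SE 1.35) without the ASC lines and -2.35 with the mouse as a fixed block, a fit in which mouse 15272 alone sets the difference.

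Within mouse 15272 the 2 high-IC50 lines stood on opposite sides of LN1-15272 for Efemp1, at 10.33 in PUL-15272 and 2.56 in B-152727 against 8.79 in LN1-15272. HEP-5123 and B-5123, from 1 mouse, also differed, at 7.16 in HEP-5123 and 3.95 in B-5123. Of the other 5 measured members of the fibulin family, Hmcn1 had a difference of 0.39 (SE 0.14) at signals of 1.67 to 2.63, in the dim range. Fbln2 was 3.25 in ASC-5193 and between 10.00 and 12.09 in the other 10 lines. Cdkn1b, which encodes the cyclin-dependent kinase inhibitor p27, differed by 0.21 (SE 0.34), or 0.425 (SE 0.216) without the ASC lines. Skp2, the F-box protein that marks p27 for degradation, differed by 0.26 (SE 0.27), or 0.065 (SE 0.27) without the ASC lines. Cdkn1b signals ran from 8.05 to 10.10 with a median of 9.66 in high-IC50 lines, against 9.51, 9.79, 8.98, 8.90 and 9.16 in low-IC50 lines, so the groups overlapped.

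**Figure D1:**
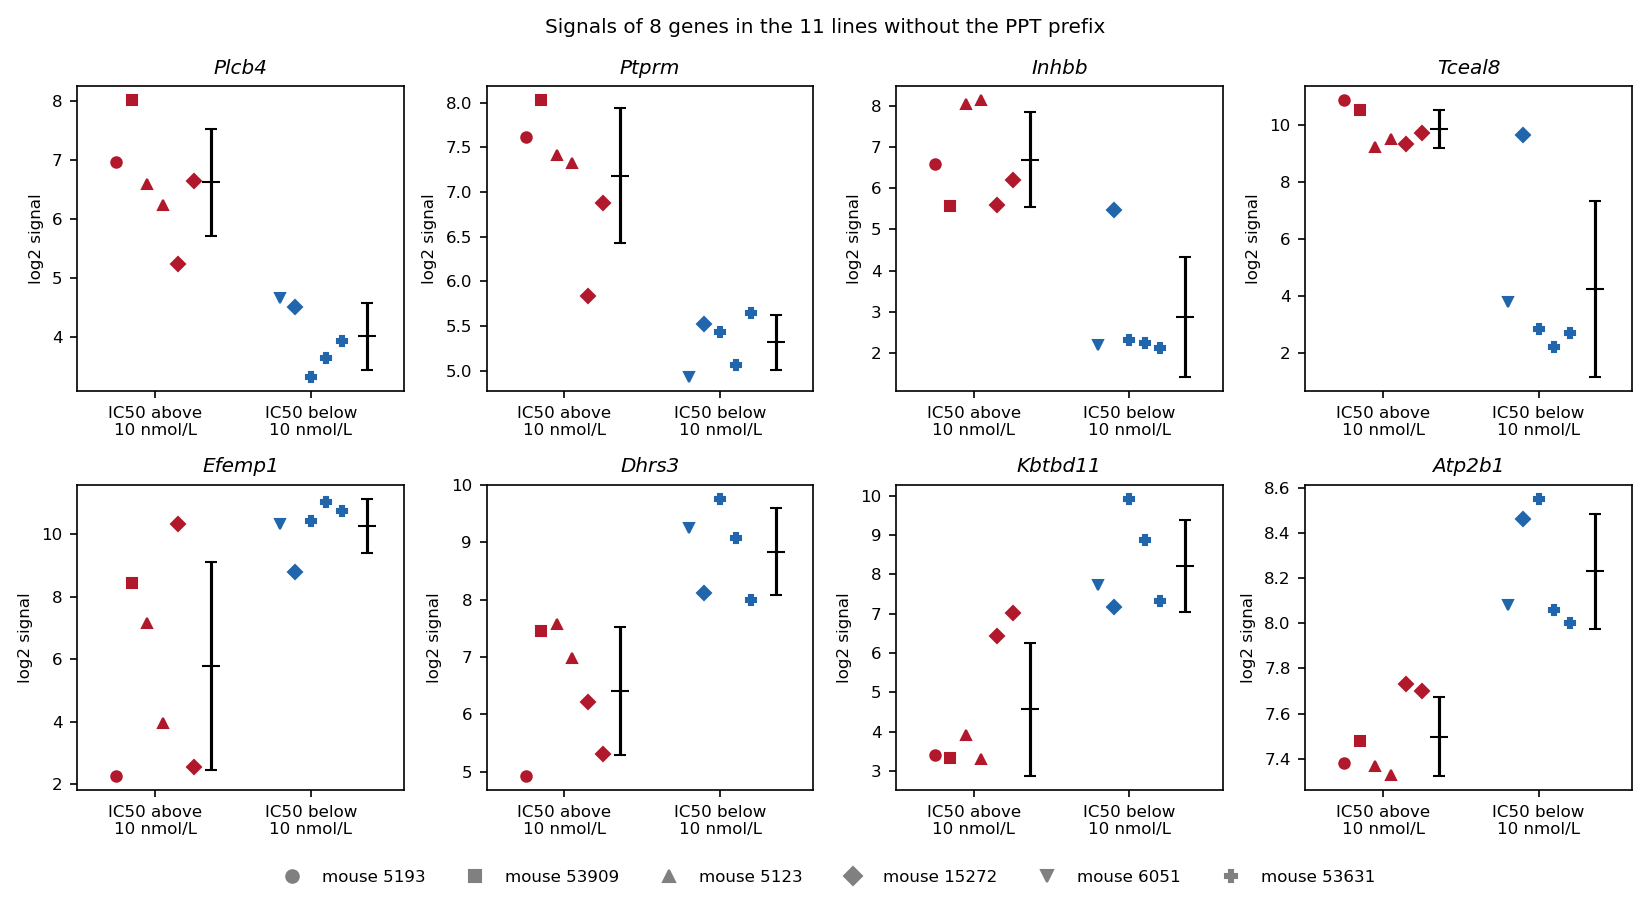
Log2 signal (y axis) of 8 genes in each of the 11 lines, with high-IC50 lines in red on the left and low-IC50 lines in blue on the right of each panel. Marker shape gives the mouse, and black bars give the group mean and SD (n = 6 and 5). For Inhbb and Tceal8 the blue diamond, LN1-15272, sits near the red points at 5.47 and 9.64, and for Efemp1 1 red diamond, PUL-15272, sits among the blue points at 10.33.

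Among the 15 genes with the smallest p and a higher signal in high-IC50 lines, Plcb4 came first. Plcb4 encodes a phospholipase C that splits PIP2 downstream of G protein-coupled receptors. Its signals were 5.24, 6.62 and 8.02 (lowest, median, highest) in high-IC50 lines, against 4.66, 4.50, 3.31, 3.63 and 3.93 in low-IC50 lines (here and below in the order B-6051, LN1-15272, HEP2-53631, PUL3-53631, B-53631), with no overlap. The difference was 2.61 (SE 0.43, unadjusted p = 6.81e-05). Its 4 other probe sets, at dim mean signals of at most 4.06, differed by 0.08 to 0.39 in the same direction. Ptprm, a receptor-type tyrosine phosphatase that mediates cell-cell adhesion, had 5.84, 7.36 and 8.03 in high-IC50 lines, against 4.93, 5.52, 5.44, 5.07 and 5.65 in low-IC50 lines, again without overlap and with a difference of 1.86 (SE 0.33). In both genes PUL-15272 was the lowest of the high-IC50 lines. With each line left out in turn the difference was 2.33 to 2.89 for Plcb4 and 1.69 to 2.13 for Ptprm. Its sign could not change, since the groups did not overlap.

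Inhbb encodes the beta B subunit of activins and inhibins, secreted ligands of the TGF-beta family. Its signals were 5.58, 6.39 and 8.14 in high-IC50 lines, against 2.20, 5.47, 2.33, 2.24 and 2.13 in low-IC50 lines. The groups did not overlap, but LN1-15272 was 0.11 below the lowest high-IC50 line while the other 4 low-IC50 lines were at background. The difference was 3.82 (SE 0.70), and 0.43 with the mouse as a fixed block. Inhbb's other probe set did not show it, with means of 4.58 in high-IC50 and 4.56 in low-IC50 lines.

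Tceal8, a member of the TFIIS-like elongation factor family, showed the same pattern more sharply. It was 9.21, 9.61 and 10.87 in high-IC50 lines, against 3.80, 9.64, 2.85, 2.20 and 2.69 in low-IC50 lines. The 3 lines of mouse 15272 thus all carried a high Tceal8 signal (9.33, 9.72 and 9.64), whichever IC50 group they were in. The difference was 5.62 (SE 1.15) over the 11 lines, 6.97 with LN1-15272 left out (adjusted p = 0.000241, limma) and -0.12 with the mouse as a fixed block. LN1-15272 was the low-IC50 line that went against the Tceal8 difference, and 3 of the low-IC50 lines that remained came from mouse 53631. That adjusted p is therefore no separate support for Tceal8. Sertad4, a SERTA-domain protein, and Eva1a, a membrane protein tied to autophagy, likewise differed by 4.45 (SE 1.02) and 3.07 (SE 0.71) over the 11 lines and by -0.55 and -0.14 with the mouse as a fixed block. Signals of LN1-15272 were 6.41 for Sertad4 and 4.72 for Eva1a, against 3.93 and 2.72 as the highest of the other low-IC50 lines. Rnf11, a RING finger protein, had 4 probe sets, all higher in high-IC50 lines, with differences between 0.60 and 1.02.

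Genes whose groups did not overlap order all 11 lines by IC50 group, and were taken as a second description. In 78 probe sets (0.173%) every high-IC50 line was above every low-IC50 line, and in 104 (0.231%) every one was below. A random order of the lines would also separate some probe sets completely, so a lack of overlap does not by itself mark a gene. Whether these shares exceed those of a random order was not tested. Of the 12 genes per direction with the widest gap, Plcb4 (0.58) and Ccn1 (0.48) led the higher ones. Ccn1 encodes a secreted matricellular protein that binds integrins. Its signals were 10.38, 11.06 and 11.99 in high-IC50 lines, against 9.90, 9.79, 6.80, 8.09 and 9.30 in low-IC50 lines, with a difference of 2.32 (SE 0.55), and its 4 probe sets differed by 2.07 to 2.64. Fyn, a SRC-family tyrosine kinase, and Dab2, an endocytic adaptor, had gaps of 0.20 and 0.16. Their differences of 1.65 (SE 0.59) and 2.80 (SE 0.95) were 0.97 (SE 0.27) and 1.38 (SE 0.36) without the ASC lines, which held the highest signals of both genes.

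Among genes lower in high-IC50 lines, Dhrs3, an enzyme that reduces retinal to retinol, had the widest gap (0.42). Its signals were 4.92, 6.61 and 7.57 in high-IC50 lines, against 9.25, 8.12, 9.76, 9.08 and 7.99 in low-IC50 lines. The difference was -2.43 (SE 0.53), and it was -2.36 with the mouse as a fixed block, since both high-IC50 lines of mouse 15272 lay at least 1.90 below LN1-15272. Dhrs3 and Proser2, which differed by -1.88 (SE 0.41), were 2 genes of this group in which mouse 15272 taken alone showed a difference of similar size, -2.36 and -1.70.

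Atp2b1, a calcium pump of the plasma membrane, differed less but with little spread. It was 7.33, 7.43 and 7.73 in high-IC50 lines, against 8.08, 8.46, 8.55, 8.06 and 8.0 in low-IC50 lines, a difference of -0.73 (SE 0.14) that was -0.75 with the mouse as a fixed block. Il1r1, the signalling receptor of interleukin 1, was 7.05, 7.40 and 7.68 in high-IC50 lines, against 7.85, 8.09, 8.53, 8.96 and 8.80 in low-IC50 lines, a difference of -1.05 (SE 0.21). Neither gene's groups overlapped, which fixes the direction within mouse 15272 for both. Kbtbd11, a kelch-repeat protein, had a larger difference of -3.64 (SE 0.81), in which the 4 high-IC50 lines of other mice than 15272 were at 3.30 to 3.92, PUL-15272 and B-152727 were at 6.42 and 7.03, and LN1-15272 at 7.18 was the lowest of the low-IC50 lines.

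Slc15a2, a peptide transporter, was 2.21, 2.56 and 2.69 in high-IC50 lines, against 4.85, 2.58, 5.37, 5.00 and 4.38 in low-IC50 lines, so LN1-15272 was again with the high-IC50 lines. The difference was -1.94 (SE 0.41), and -2.40 with LN1-15272 left out (adjusted p = 0.00224, limma). As for Tceal8, the line left out was the low-IC50 line that went against the difference, so this adjusted p is no separate support. The 2 other probe sets of Slc15a2 went the other way, by 0.13 and 0.22, at dim signals. Tecpr1, which takes part in the fusion of autophagosomes with lysosomes, differed by -1.06 (SE 0.23), with PUL-15272 at 7.90 inside the range of the low-IC50 lines. Galnt7, a transferase of O-glycan synthesis, and Nectin2, an adhesion molecule of cell junctions, differed by -0.99 (SE 0.23) and -1.10 (SE 0.25).

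**Figure D2:**
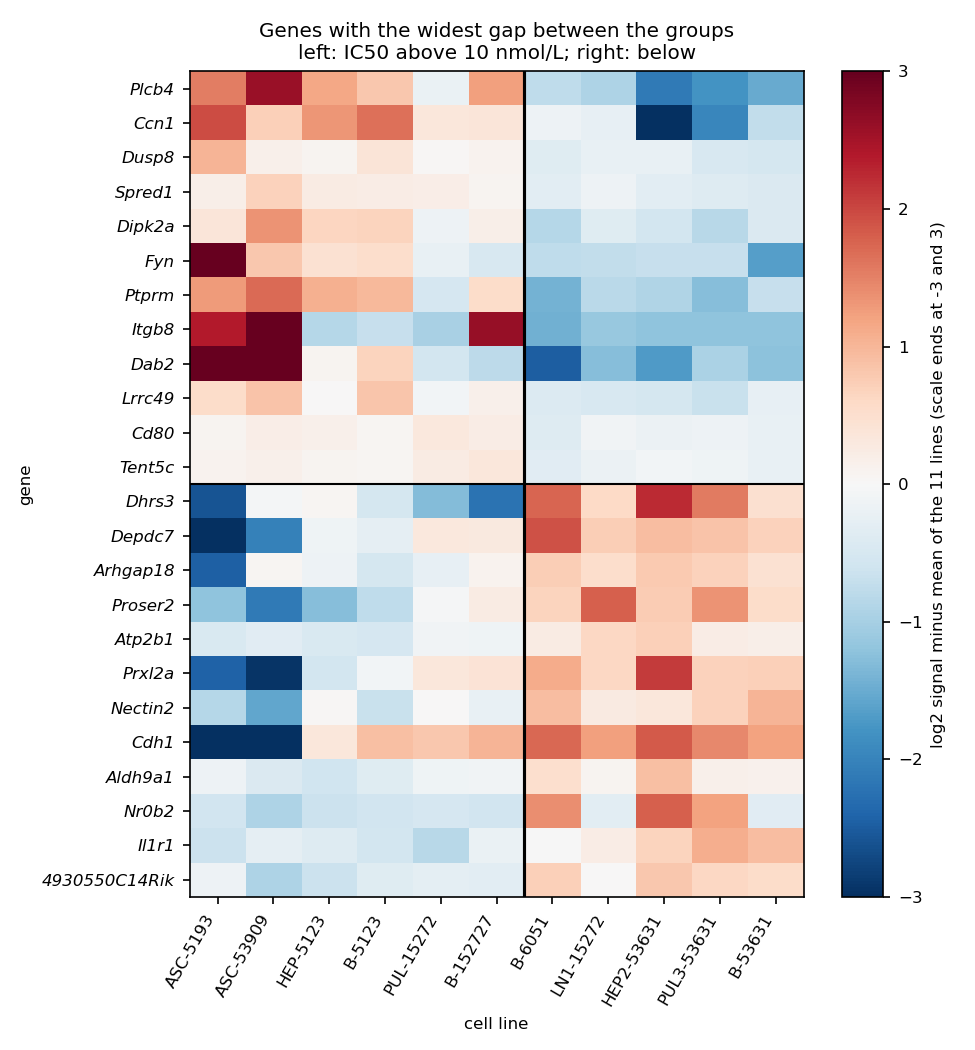
Heat map of the 12 genes per direction with the widest gap between the groups, by line. Colour gives log2 signal minus the gene's mean over the 11 lines, with high-IC50 lines left of the vertical line and low-IC50 lines right of it. The genes were chosen for this separation, and Dab2 (8.62 and 9.53) and Cdh1 (2.75 and 6.48) show how far the 2 ASC lines lie from the other high-IC50 lines.

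Genes of the pathway that Bez235 inhibits were taken as a list of 32 measured members. At an unadjusted p under 0.05, 2 were higher and 0 were lower in high-IC50 lines, against 2.36% and 3.28% of all probe sets. The median difference was 0.09, against -0.0037 over all probe sets. The 2 were Sgk1, a kinase downstream of mTOR complex 2, and Mlst8, a subunit of both mTOR complexes. Sgk1 was 9.23, 10.73 and 11.71 in high-IC50 lines, against 10.56, 9.39, 5.67, 8.27 and 9.12 in low-IC50 lines, a difference of 2.02 (SE 0.79) that was 1.29 with HEP2-53631 left out and 0.06 with the mouse as a fixed block. Mlst8 differed by 0.36 (SE 0.13). Tsc2, which with its partner inhibits mTOR complex 1 through RHEB, differed by 0.42 (SE 0.20), or 0.21 (SE 0.12) without the ASC lines, with ASC-5193 highest at 7.81. For the kinases themselves the differences were below their standard errors or close to them, 0.17 (SE 0.19) for Pik3ca, 0.17 (SE 0.16) for Akt1 and 0.15 (SE 0.25) for Mtor.

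In the list of 19 G1 cyclins, their kinases and inhibitors, 15 had positive and 4 negative differences (median 0.26), and without the ASC lines 12 were positive and 7 negative (median 0.065). Cdk2 differed by 0.49 (SE 0.22) in all lines and 0.22 (SE 0.16) without the ASC lines, and Ccnd2 by -1.53 (SE 0.70). Ccnd2, a D-type cyclin, was 6.86, 8.39 and 10.94 in high-IC50 lines, against 10.77, 10.43, 11.09, 9.57 and 10.03 in low-IC50 lines. The high-IC50 lines of mouse 15272 had the highest values of their group, 10.94 and 10.63, and the 4 other high-IC50 lines were at 6.86 to 8.88. All 7 probe sets of Ccnd2 were lower, by 1.30 to 1.77. Ccnd1 was between 11.58 and 12.62 in all 11 lines. Cdkn2a and Cdkn2b, neighbouring inhibitors of the CDK4 and CDK6 kinases, separated the lines in another way. Cdkn2a was 12.06 in ASC-5193 and 11.22 in B-6051, and between 1.80 and 3.33 in the other 9 lines. Cdkn2b was 9.06 and 10.03 in the same 2 lines and between 2.41 and 4.39 elsewhere. These were the 2 lines with the listed p53R172H allele, 1 in each IC50 group.

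Of 18 epithelial identity genes, 17 had a negative difference, with a median of -1.91 against -0.0037 over all probe sets. At an unadjusted p under 0.05, 2 of the 18 were lower and 0 were higher in high-IC50 lines, against 3.28% and 2.36% over all probe sets, and none passed adjustment. Without the ASC lines the median was -0.29, with 14 of 18 negative. Krt7, a keratin of duct epithelium, was 2.09 in ASC-5193, 2.45 in ASC-53909 and between 9.39 and 12.35 in the other 4 high-IC50 lines, against 12.58, 12.34, 12.50, 12.53 and 12.66 in low-IC50 lines. Dsp, the desmosome protein desmoplakin, was 2.32 and 1.59 in the ASC lines and at least 8.24 in the other 9 lines.

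Some of these genes also separated the other 9 lines. Cdh1, which encodes E-cadherin, was 2.75 in ASC-5193, 6.48 in ASC-53909 and 10.23 to 10.90 in the other high-IC50 lines, against 11.60, 11.12, 11.72, 11.33 and 11.10 in low-IC50 lines. The groups did not overlap, by a gap of 0.20, and the difference was -2.74 (SE 1.35) in all lines and -0.72 (SE 0.18) without the ASC lines. Muc1, a membrane mucin of the apical surface, is one of the ductal markers and not among the 18 epithelial genes. Its groups did not overlap either, with 3.21 and 3.20 in the ASC lines and 8.90 to 9.71 in the other 4 high-IC50 lines, against 11.21, 9.84, 10.83, 10.07 and 10.13 in low-IC50 lines. Its difference was -3.15 (SE 1.29) in all lines and -1.12 (SE 0.29) without the ASC lines. Elf3, an epithelium-restricted ETS transcription factor, was 4.76, 6.33 and 7.24 in high-IC50 lines, against 8.84, 7.18, 9.02, 8.01 and 7.37 in low-IC50 lines, and differed by -1.96 (SE 0.52, unadjusted p = 0.00287) in all lines and -1.35 (SE 0.41) without the ASC lines. Ocln, the tight junction protein occludin, differed by -2.63 (SE 0.85), and its groups overlapped, with PUL-15272 at 6.17.

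Promoters are shown because the mean signal of the 18 epithelial genes was lowest in ASC-5193 (3.09) and ASC-53909 (4.42). Not all of them were low there, with 14 below the array's median in ASC-5193 and 9 in ASC-53909. RefSeq windows of 300 bases (250 before to 50 after the start, build GRCm38.p6) were found for 11 of the 18 epithelial genes and searched on both strands for CAGGTG, which reads CACCTG on the other strand, the E-box core known to be recognised by the SNAI and ZEB repressors. The motif stood in 12 of 13 windows (92.3%) of the epithelial genes, in 2 of 12 windows (16.7%) of 9 mesenchymal genes, and in 20.2% of all 32851 windows, and some windows of 1 gene overlap. Muc1, a ductal marker outside the 18, is printed as well but is not part of the epithelial counts. In the sequences, written 5′ to 3′ along the gene, capitals mark the motif, which begins at position -44 from the start in Krt7, -214 in Krt18, -140 in Elf3, and -234 and -70 in Muc1. A match describes the letters only, and binding was not measured.
Krt7 (chr15:101412153-101412452, plus strand): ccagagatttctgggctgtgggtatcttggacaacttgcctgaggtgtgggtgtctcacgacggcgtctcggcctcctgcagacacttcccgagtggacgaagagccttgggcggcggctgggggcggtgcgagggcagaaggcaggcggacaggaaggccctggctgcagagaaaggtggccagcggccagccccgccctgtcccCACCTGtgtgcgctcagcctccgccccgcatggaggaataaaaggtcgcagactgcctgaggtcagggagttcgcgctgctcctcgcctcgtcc
Krt18 (chr15:102027966-102028265, plus strand): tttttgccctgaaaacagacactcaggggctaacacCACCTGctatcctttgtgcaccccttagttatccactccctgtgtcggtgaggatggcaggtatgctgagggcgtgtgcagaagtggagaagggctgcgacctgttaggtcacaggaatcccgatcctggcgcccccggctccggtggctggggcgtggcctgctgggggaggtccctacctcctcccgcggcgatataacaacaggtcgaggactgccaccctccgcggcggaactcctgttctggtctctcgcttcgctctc
Elf3 (chr1:135258423-135258722, minus strand): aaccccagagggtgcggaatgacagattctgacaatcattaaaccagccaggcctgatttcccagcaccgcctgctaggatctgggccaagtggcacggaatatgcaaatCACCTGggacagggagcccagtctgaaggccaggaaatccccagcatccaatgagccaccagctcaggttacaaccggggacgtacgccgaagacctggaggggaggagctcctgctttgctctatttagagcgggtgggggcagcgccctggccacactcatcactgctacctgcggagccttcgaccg
Muc1 (chr3:89228806-89229105, plus strand): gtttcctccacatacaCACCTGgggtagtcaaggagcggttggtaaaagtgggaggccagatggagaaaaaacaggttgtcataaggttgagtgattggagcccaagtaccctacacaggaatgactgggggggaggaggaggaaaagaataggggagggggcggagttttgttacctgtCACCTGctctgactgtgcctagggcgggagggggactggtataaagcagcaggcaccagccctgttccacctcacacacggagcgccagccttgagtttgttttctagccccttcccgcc

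Of 14 mesenchymal genes, all 14 had a positive difference (median 1.08), against 22173 of all 45037 probe sets. At an unadjusted p under 0.05, 3 were higher and 0 were lower, against 2.36% and 3.28% of all probe sets. Without the ASC lines 13 were positive, with a median of 0.39. Zeb2, one of the E-box repressors, was 4.40, 6.27 and 7.41 in high-IC50 lines, against 4.80, 5.65, 4.10, 4.31 and 4.21 in low-IC50 lines, and differed by 1.52 (SE 0.46) in all lines, 1.17 (SE 0.46) without the ASC lines and -0.47 with the mouse as a fixed block. PUL-15272 at 4.40 was the only high-IC50 line below any low-IC50 line. Snai1 differed by 0.45 (SE 0.18), or 0.24 (SE 0.15) without the ASC lines, at dim signals of 2.44 to 3.84, and Axl, a receptor tyrosine kinase, by 0.99 (SE 0.44). Prrx1, a homeobox gene of mesenchyme, was 10.79 and 10.54 in the ASC lines and at most 4.98 in the other 9 lines.

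Fibroblast markers moved with the same 2 lines and with 1 low-IC50 line. The mean signal of 9 fibroblast markers was 6.96 in ASC-5193, 8.54 in ASC-53909 and 3.29 to 3.89 in the other high-IC50 lines, against 3.46 in B-6051, 5.36 in LN1-15272, 3.05 in HEP2-53631, 2.99 in PUL3-53631 and 2.92 in B-53631. Dcn, the matrix proteoglycan decorin, was 11.53 and 9.83 in the ASC lines and 2.94 to 4.98 elsewhere, whereas Fap stayed at 1.97 to 2.77 in all 11 lines. Col6a1, a chain of collagen VI, differed by 3.31 (SE 1.07) in all lines and 2.25 (SE 0.98) without the ASC lines, with LN1-15272 at 7.68, above 2 high-IC50 lines. Among 9 leukocyte markers, Lyz2, the lysozyme of macrophages, was 8.06 in HEP-5123 and at most 5.01 in the other lines, and Ptprc, the defining CD45 gene, was at 1.81 to 3.23 in all 11. A line's own expression of these genes and other cells in its culture cannot be told apart in a bulk array, and their part in the IC50 contrast was not tested.

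**Figure D3:**
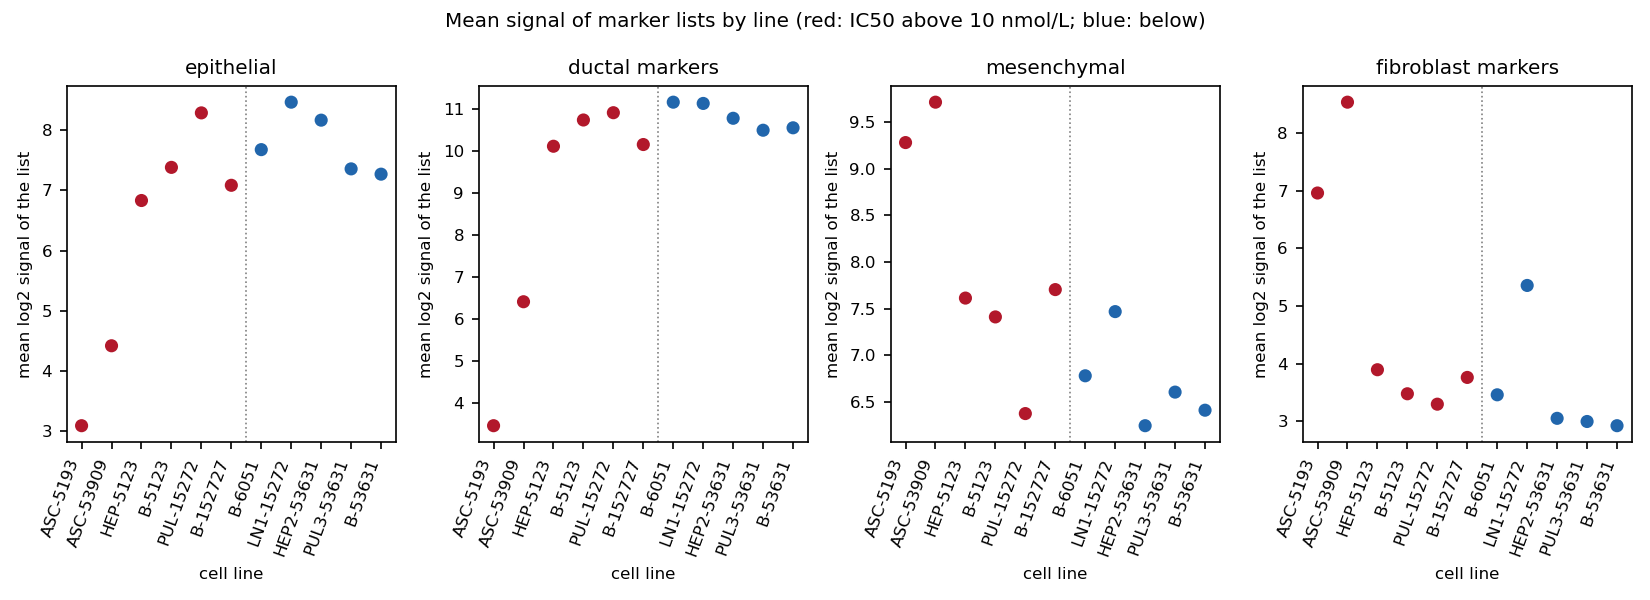
Mean log2 signal (y axis) of 4 gene lists in each line, with high-IC50 lines (red) left of the dotted line and low-IC50 lines (blue) right of it. ASC-5193 and ASC-53909 are lowest for ductal markers (3.45 and 6.41) and highest for fibroblast markers (6.96 and 8.54), and LN1-15272 follows them for the fibroblast list (5.36).

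Interferon response genes had 14 of 15 positive differences, with a median of 0.90, or 0.19 without the ASC lines. At an unadjusted p under 0.05, 1 was higher and 0 were lower, against 2.36% and 3.28% of all probe sets. Ifit2, an interferon-induced RNA-binding protein, was 3.39, 5.86 and 8.20 in high-IC50 lines, against 4.70, 3.93, 4.68, 4.45 and 4.23 in low-IC50 lines, with ASC-5193 and ASC-53909 highest and PUL-15272 lowest of all. Its difference was 1.55 (SE 0.68), or 0.70 (SE 0.47) without the ASC lines. The 10 measured cholesterol synthesis genes had 9 negative differences and a median of -0.40, and none reached an unadjusted p under 0.05. Of 8 drug efflux transporters, Abcc3, a pump of organic anions and conjugates, differed by -2.23 (SE 0.89) in all lines and -0.95 (SE 0.46) without the ASC lines. Receptor tyrosine kinases (17 genes, median 0.16), ERK output genes (14, median 0.11), proliferation genes (19, median 0.13) and p53 targets (12, median 0.04) had medians within 0.20 of that over all probe sets. Without the ASC lines these medians were 0.04, -0.005, 0.076 and 0.202, in the same order. Erbb2, one of the receptor tyrosine kinases, differed by -0.48 (SE 0.23), or -0.18 (SE 0.13) without the ASC lines.

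Mouse 15272 was the only source of a comparison within 1 animal. Both high-IC50 lines, PUL-15272 and B-152727, were above LN1-15272 by over 1 log2 unit in 65 probe sets and below it by over 1 in 204. Among the lower ones, Col3a1, a fibrillar collagen chain, was 2.56 and 2.19 in PUL-15272 and B-152727 against 7.72 in LN1-15272, and Tagln, an actin-binding protein of smooth muscle and myofibroblasts, was 5.13 and 4.93 against 9.28. Il6, the cytokine interleukin 6, was 2.38 and 3.01 against 7.23, and in the other 8 lines it was at most 3.52. With the mouse as a fixed block, a fit in which LN1-15272 is the only low-IC50 array that counts, Il6 differed by -4.53. Over the 11 lines its difference was -0.51 (SE 0.88). Among the higher ones, Selenop, a plasma selenium carrier, was 10.71 and 12.17 against 9.0, and Mmp13, a collagenase, was 9.08 and 9.44 against 7.39. Of the probe sets whose groups did not overlap, 0 of the 78 higher and 2 of the 104 lower ones also differed by over 1 in this mouse, in the same direction in both lines.

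Leaving out the 3 lines of mouse 15272 changed the count of calls from none to 104. The comparison then held 4 high-IC50 lines of 3 mice and 4 low-IC50 lines of 2 mice, so no mouse was in both groups and 3 of the 4 low-IC50 lines came from mouse 53631. Of 45037 probe sets, 61 (0.135%) were higher and 43 (0.0955%) were lower in high-IC50 lines at an adjusted p under 0.05 (limma). This setting was planned as one of several alternatives, and the genes named from it were chosen after its values were seen.

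The lines of mouse 15272 were not used in those calls and give a separate view of them. Both PUL-15272 and B-152727 differed from LN1-15272 in the called direction in 10 of the 104 probe sets (9.6%) and in the opposite direction in 42 (40.4%). Over all probe sets, the shares were 23.4% and 33.7%. The opposite direction was found in 32 of the 61 higher calls (52.5%), 22 of them on chromosome 4, and in 10 of the 43 lower calls (23.3%). The called direction was found in 6 (9.8%) and 4 (9.3%). Both differences share the LN1-15272 array, and these shares were not tested. PUL-15272 lay on the side of the high-IC50 lines in 13 of the 104, B-152727 in 52 and LN1-15272 in 50, against 17997, 20108 and 21268 of all 45037 probe sets.

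**Figure D4:**
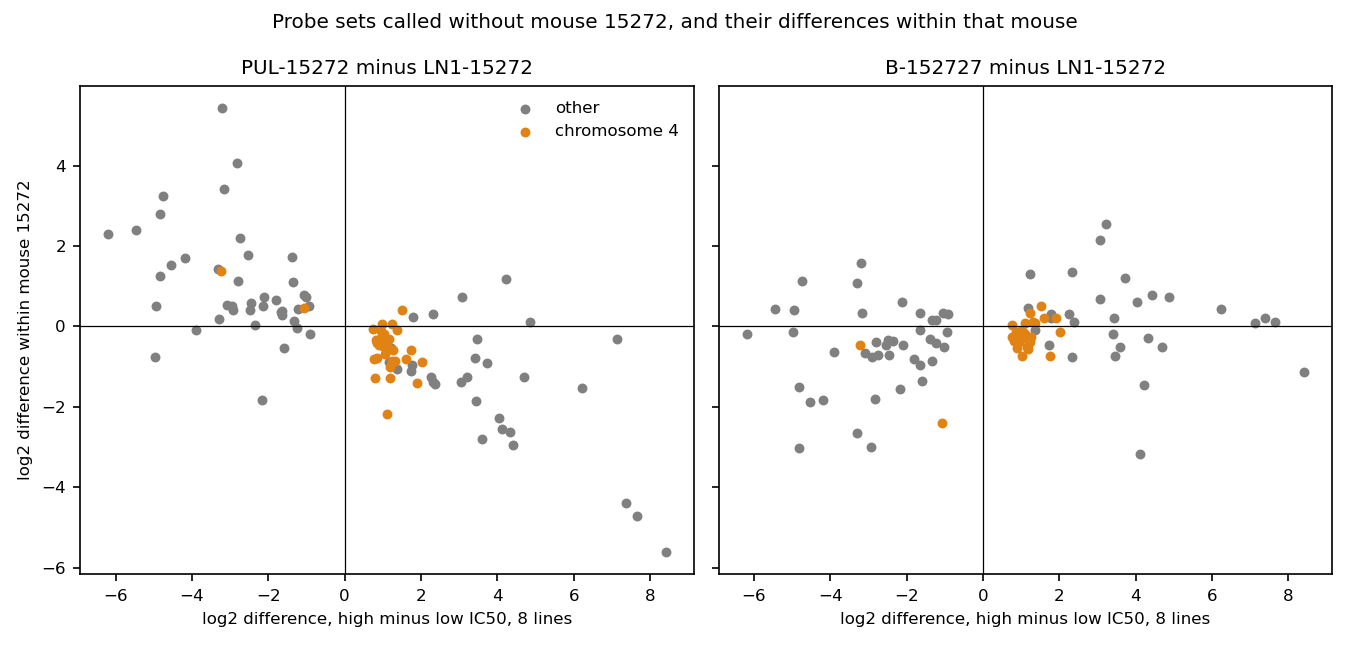
Each point is 1 of the 104 probe sets called without mouse 15272. The x axis gives its log2 difference, high- minus low-IC50, over the other 8 lines, and the y axis gives the log2 difference of PUL-15272 (left) or B-152727 (right) from LN1-15272. In the left panel most points with a positive x have a negative y, such as Ifitm3 at 8.41 and -5.61. Probe sets of chromosome 4 genes are orange.

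Ifitm3, an interferon-induced membrane protein that restricts virus entry, had the largest difference of these 104. It was 12.94, 12.41, 10.42 and 10.71 in ASC-5193, ASC-53909, HEP-5123 and B-5123, against 2.15, 4.79, 3.17 and 2.73 in B-6051, HEP2-53631, PUL3-53631 and B-53631. In mouse 15272 it was 2.48 in PUL-15272 and 6.95 in B-152727, against 8.09 in LN1-15272, the reverse order. Fstl1, a secreted follistatin-like glycoprotein, was 9.34 to 11.19 in the 4 high-IC50 lines and 2.10 to 3.31 in the 4 low-IC50 lines, and 2.53 and 7.13 against 6.92 in mouse 15272. Tceal8, Inhbb, Sertad4 and Plcb4 were also among the 61. The difference of Ifitm3 was 8.41 in the 8 lines (adjusted p = 0.0103, limma) and 5.13 (SE 1.82) in the 11 lines.

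Of the 43 lower ones, Cdhr2, a protocadherin that links microvilli, was 2.06, 2.93, 2.70 and 2.67 in the 4 high-IC50 lines, against 7.85, 6.31, 7.61 and 7.90 in the 4 low-IC50 lines, a difference of -4.83 (adjusted p = 0.00898, limma). It was 9.08 in PUL-15272 and 3.25 in B-152727, against 6.28 in LN1-15272. Gcnt3, which branches the O-glycans of mucins, had the same order, with 6.68 in PUL-15272 and 2.60 in B-152727 against 5.24 in LN1-15272. In both genes 5 of the 6 high-IC50 lines were below every low-IC50 line and PUL-15272 was the exception. With PUL-15272 alone left out, 4 probe sets passed, those of Cdhr2 (difference -4.47), Gcnt3 (-3.18), Ptprm (2.13) and 1 probe set matching several genes. Since PUL-15272 was the line that went against Cdhr2 and Gcnt3, passing without it is no separate support for these 2 genes. Tmprss2, a membrane serine protease, Il17re, a subunit of the interleukin 17C receptor, and Fbp2, a fructose bisphosphatase, differed by -4.95, -3.16 and -5.46 in the 8 lines and by -3.30 (SE 1.04), -1.76 (SE 0.82) and -3.62 (SE 1.03) in the 11 lines. Without the ASC lines Il17re differed by -1.16 (SE 0.86), and its 2 other probe sets differed by -0.05 and -0.20 in the 11 lines. Gcnt3 was also the only call among lines whose IC50 interval excluded the cutoff, through another of its probe sets, with 1.61, 1.63 and 2.30 in the 3 high-IC50 lines against 10.13 and 10.54 in the 2 low-IC50 lines. Those 2 low-IC50 lines, HEP2-53631 and B-53631, came from 1 mouse. The high-IC50 lines left out of that fit were higher in this probe set, at 7.70 in HEP-5123, 6.94 in B-5123 and 9.79 in PUL-15272.

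The 61 higher probe sets were not spread evenly over the genome. Of the 56 with 1 gene on chromosomes 1 to 19 or X, 31 (55.4%) belonged to 30 genes of chromosome 4, which holds 6.03% of all such probe sets. Their differences lay between 0.75 and 2.02. Nbn, the nibrin subunit of the complex that senses DNA double-strand breaks, was 8.47, 8.57, 8.62 and 8.77 in the 4 high-IC50 lines, against 7.19, 6.99, 7.46 and 7.75 in the 4 low-IC50 lines. Snapc3, a subunit of the complex that starts small nuclear RNA transcription, was 7.14 to 7.33 against 6.03 to 6.14, and Tln1, the integrin-linking protein talin 1, was 8.65 to 8.96 against 7.85 to 7.96. Within mouse 15272 both high-IC50 lines were below LN1-15272 in 22 of the 31, for instance Snapc3 at 6.28 and 6.72 against 7.28.

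The shift took in more of the chromosome than its called genes. Among 1211 brighter probe sets of chromosome 4 (mean above the median probe set), the median difference in the 8 lines was 0.33, with 74.6% positive, against 54.1% positive over all chromosomes. Chromosome 14 followed with 69.3% (median 0.21), and chromosomes 16 and 19 had the lowest shares, 32.0% and 33.3%. In the 11 lines the median for chromosome 4 was 0.17. By line, the median deviation of chromosome 4 from the 11-line median was 0.07, 0.10, 0.08 and 0.26 in ASC-5193, ASC-53909, HEP-5123 and B-5123, -0.13 in PUL-15272 and 0.00 in B-152727, against 0.00 in B-6051, 0.13 in LN1-15272, -0.12 in HEP2-53631, -0.08 in PUL3-53631 and -0.16 in B-53631. The 3 lines of mouse 53631 were all negative, and the 2 groups overlapped through mouse 15272. In the lines with the PPT prefix the median difference of chromosome 4 was -0.37, the opposite sign. Other chromosomes deviated more in single lines, such as chromosome 15 in ASC-5193 at 0.47. DNA copy number was not measured.

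**Figure D5:**
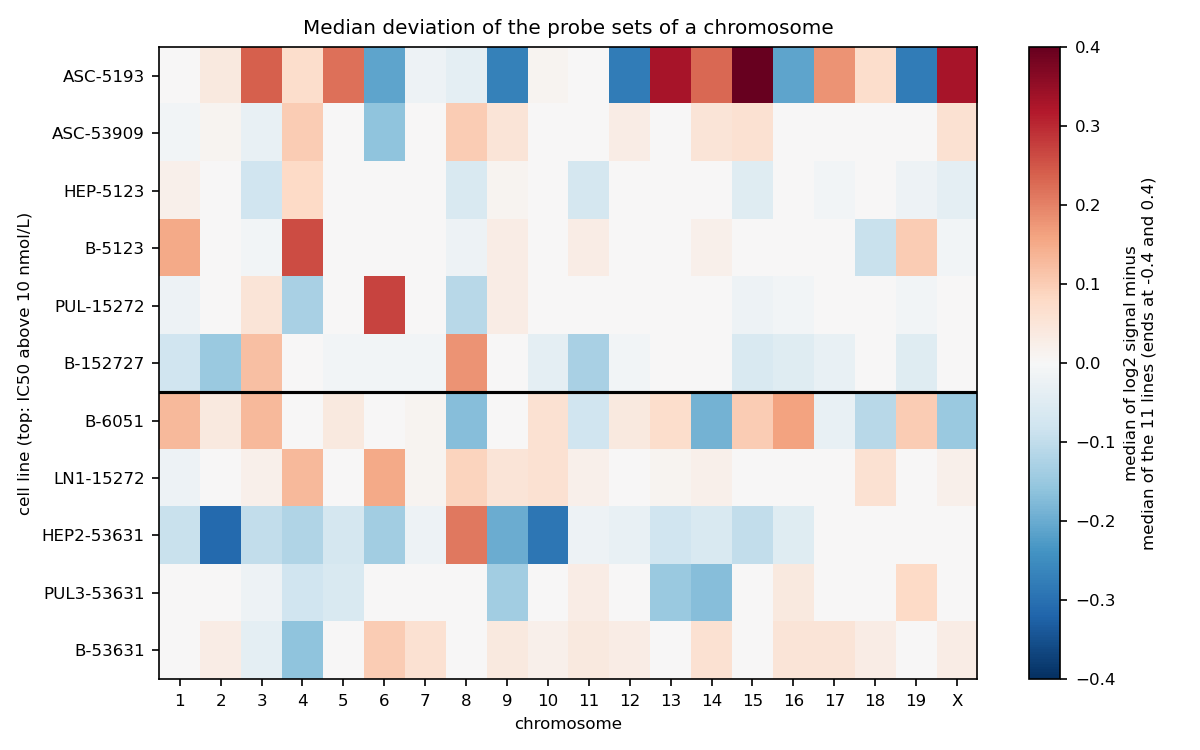
Median deviation of the brighter probe sets of each chromosome (x axis) in each line (rows, high-IC50 lines above the black line, low-IC50 lines below it). Colour gives log2 signal minus the probe set's median over the 11 lines. Chromosome 4 is positive in the top 4 rows (0.07 to 0.26) and negative in the bottom 3 (-0.08 to -0.16).

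Lines with the PPT prefix share no array with these 11, though 4 mice, those of ASC-5193 and B-6051 and mice 15272 and 53631, gave lines to both sets. Over all probe sets, 41.5% had the same sign of the IC50 difference (high minus low) in the 12 PPT lines (3 above and 9 below the cutoff) as in the 11 lines, and for the 182 probe sets whose groups did not overlap the counts were 27 of 78 and 42 of 104. Of the 15 genes with the smallest p in each direction, 5 of the higher and 5 of the lower ones kept their sign. Dab2 differed by 2.80 in the 11 lines, and its PPT means were 4.87 in the 3 high-IC50 and 7.22 in the 9 low-IC50 lines. The epithelial and mesenchymal lists had the opposite sign in the PPT lines. Their median differences there were 1.35 (16 of 18 genes positive) and -0.96 (14 of 14 negative). Interferon response and cholesterol synthesis genes kept the sign of their medians, at 0.581 and -0.655. Efemp1 kept its direction, with PPT means of 4.88 and 10.08. The difference between the 2 contrasts was 0.72 (SE 1.75) for Efemp1, so neither a like nor an unlike size could be told at this spread.

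The contrast itself was tested for a difference between the 11 lines and the PPT lines in 1 fit of all 23 lines. At an unadjusted p under 0.05, 5262 probe sets (11.7%) differed, and 1 (0.00222%) passed adjustment. This was Gprc5c, a retinoic acid-induced orphan receptor, with a difference of contrasts of -3.63 (SE 0.53, adjusted p = 0.038, limma). It was dim in all 11 lines, at 2.32 to 3.15 in high-IC50 and 2.72 to 3.05 in low-IC50 lines, and was 7.45, 7.86 and 5.04 in the 3 high-IC50 PPT lines, against 2.90 to 4.48 in the 9 low-IC50 PPT lines. With the mouse as a random block the lowest adjusted p was 0.0567, and with any 1 of the 11 lines left out no probe set passed. With PPT-15272 left out, 340 probe sets passed.

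The ASC lines stood apart from all other lines in the most probe sets. ASC-5193 had 316 probe sets over 2 log2 units above and 144 over 2 below every other line, and ASC-53909 had 239 and 112. In the other 9 lines these counts were at most 46 above and 27 below. B-152727, a high-IC50 line, stood out by Serpina1b and Serpina1c, antitrypsin genes of liver, at 10.61 and 9.23 against at most 2.53 elsewhere, and by Tff3, a trefoil peptide of mucous epithelium, at 11.25. PUL-15272 was set apart by Gjc1, a gap junction connexin, at 2.42, below the 10 other lines. Among low-IC50 lines, B-6051 had Cldn18, a claudin of stomach and lung epithelium, at 11.44 and the membrane-actin linker Rdx at 2.35, and HEP2-53631 had Isx, an intestinal homeobox gene, at 8.39. These values were each seen in 1 array and have no replicate.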

How the data were processed

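RNA of each line was hybridised to an Affymetrix whole-genome mouse array. The authors deposited 1 table of normalized log2 signals per probe set. The study's methods name VSN and the submitters' processing notes name RMA, so which of the 2 made the values is not settled, and both bring the arrays to a comparable overall level, which can hide a shift of all genes. No counts or detection calls were used. The number of lines, lines that share a mouse and dim signals limit precision. Control probe sets (64 of 45101) were left out, which left 45037. Of these, 34945 had 1 gene symbol, 932 had several and 9160 had none in the platform annotation. Names were given only to probe sets with 1 symbol.

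The 6 lines with an IC50 above 10 nmol/L were compared with the 5 below it by lmFit and eBayes in limma 3.58.1 (R 4.3.3), without a block, with p-values adjusted by Benjamini-Hochberg across the whole table and called under 0.05. An interaction term over all 23 lines tested the difference from the lines with the PPT prefix. Standard errors are limma's moderated ones. The script was tested on simulated data.

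Named genes were Efemp1, Cdkn1b and Skp2, per direction the 15 genes with the smallest p and the 12 with the widest gap between groups, the members with the smallest p in every list (at most 4), genes of mouse 15272 and genes that set 1 line apart, of which a part is printed. A gene of a list stands by its probe set with the highest mean. Genes printed from the comparison without mouse 15272 were chosen after its values were seen. The members, gene lists and tests were chosen with earlier results of these data known. Alternatives were the mouse as a random or fixed block, 1 mean per mouse, each line or mouse left out, lines with an IC50 interval clear of the cutoff, log2 IC50 as a continuous measure, all 23 lines in 1 fit, quantile normalization, centring, a filter on dim probe sets, eBayes with trend and robust variances, and the methods' t-test. Leaving out both ASC lines, the 2 lines with a listed p53 allele, or LN1-15272 with HEP-5123 was added after seeing the data. Promoter windows came from RefSeq (GRCm38.p6). Part of the listed genotype is not reported here.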

Additional observations from a re-analysis of the deposited data

Results flagged for a closer look

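In 18 of 106 groups of signals (53 genes in 2 IC50 groups), 1 line stood apart from the rest of its group by Dixon's criterion at 95%. Chance alone gives such a line in about 5% of groups of independent lines, but several lines here share a mouse, so that rate is not a fair yardstick. The genes were also not chosen independently of these values. LN1-15272 accounted for 8 of the 18. It was above the other low-IC50 lines for Inhbb (5.47), Rnf11 (4.34), Tceal8 (9.64), Eva1a (4.72), Fstl1 (6.92), Snapc3 (7.28) and Tln1 (8.52), and below them for Il17re (5.45).

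Among high-IC50 lines, PUL-15272 was above the others for Tecpr1 (7.90), Cdhr2 (9.08), Gcnt3 (6.68) and Il17re (8.87). ASC-5193 was above the others for Fyn (8.11) and Tsc2 (7.81) and below them for Cdkn1b (8.05). Among low-IC50 lines, B-6051 was above the others for Depdc7 (8.70) and below them for Mlst8 (5.19), and B-53631 was below the others for Fyn (3.03).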

How the results depend on the processing

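Of 53 genes under up to 28 alternatives, 1431 values kept their sign and their side of the threshold, 29 kept their sign and passed it, and 22 changed sign. With the mouse as a fixed block, where mouse 15272 alone sets the difference, the log2 differences with changed sign were -0.07 for Cdkn1b, -0.59 for Skp2, -0.005 for Rnf11, -0.115 for Tceal8, -0.545 for Sertad4, -0.135 for Eva1a, 0.355 for Ccnd2, -0.065 for Cdk2, -0.47 for Zeb2, -0.43 for Axl, -0.55 for Col6a1, 0.465 for Abcc3, -3.375 for Ifitm3, -2.09 for Fstl1, 0.46 for Tmprss2, 1.88 for Il17re, 1.42 for Fbp2, -0.425 for Nbn, -0.78 for Snapc3 and -0.35 for Tln1. Cdkn1b was also -0.072 with 1 mean per mouse and -0.175 without mouse 53631. The labels give no replicate numbers, and the fixed block is the only fit within a mouse.

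The count at adjusted p under 0.05 (limma, 0 in the 11 lines) was 1 with the fixed block, 104 without mouse 15272, 1 among lines whose IC50 interval excludes the cutoff and 2 without LN1-15272 and HEP-5123. Leaving out each line gave 0 to 4, with 2 without LN1-15272 and 4 without PUL-15272. The count at unadjusted p under 0.05 (2543) was 1634 with a random block, 1452 with 1 mean per mouse, 1170 with the fixed block, 5137 without mouse 15272, 1022 without mouse 53631, 3906 against log2 IC50 and 1309 among brighter probe sets, of which fewer were tested. It was 1759 to 4280 with each line left out, the highest without PUL-15272. For the difference of contrasts, the 1 call became 0 with a random block and 0 to 340 with each line left out, and the unadjusted count (5262) ran from 3368 without PPT-5671 to 6795 without PPT-15272. The cause of these changes was not tested.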
